A study of Mus musculus with 2 samples.

Results

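Collagens are the main structural proteins of the extracellular matrix, and the 44 genes described here are those of the mouse whose symbol has the form Col, a type number, a and a chain number and that have a protein-coding transcript in the annotation. They were taken by name alone from the 55536 annotated genes in the deposited tables, 21901 of which have a protein-coding transcript. RNA levels were measured by total RNA-seq of the adrenal gland, the paired organ in which a steroid-producing cortex surrounds a medulla of catecholamine-producing chromaffin cells, under a capsule of connective tissue. There was 1 group: adrenal glands of female B6CASTF1/J mice, a first-generation cross of the C57BL/6J and CAST/EiJ strains, aged 4 days, with 2 biological replicates, no treatment named in the labels and no other age, sex or strain. The levels do not separate the parental alleles, and how fully the reads of each allele were counted was not tested. The labels call the libraries biological replicates, but 1 text field repeats replicate 1's animal number for replicate 2 while another field gives a different number, and both carry the same donor record. With 1 group of 2, no test of a difference was possible, and the values below are levels per animal, their mean ± SD (n = 2) and the difference between the animals beside its counting error. Where 2 values of a gene or list stand together, replicate 1 comes first.

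A collagen molecule is made of 3 chains wound around each other in a triple helix. The winding needs a glycine at the first position of each amino acid triplet, written Gly-X-Y, because no larger side chain fits inside the helix. Fibril-forming collagens (types I, II, III, V, XI, XXIV and XXVII) have a long uninterrupted helix and pack into the banded fibrils of connective tissue. Type IV collagen has a frequently interrupted, flexible helix and forms the sheet-like network of basement membranes, while type VI forms beaded filaments beside them. Fibril-associated collagens sit on the surface of fibrils, multiplexins (types XV and XVIII) are basement-membrane proteoglycans, transmembrane collagens are anchored in the cell surface, and the short-chain types VIII and X form hexagonal networks. In endocrine glands, basement membranes line the dense capillary bed and surround the hormone-producing cells, and fibrillar collagen makes up the capsule.

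The coding sequences carry the difference between these classes, and a stretch of the annotated coding sequence is printed for the most abundant chains of the 3 leading classes. In each stretch the capitals mark the glycine codons that open a Gly-X-Y triplet within a run of at least 5 such triplets. Triplets outside such a run stay in lower case. The fibril-forming stretches show the beginning of the longest run, and the type IV and type VI stretches each show a place where the rhythm breaks.
Col1a1, codons 168 to 197: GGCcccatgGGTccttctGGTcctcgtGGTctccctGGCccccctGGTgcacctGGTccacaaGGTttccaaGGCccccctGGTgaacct
Col1a2, codons 97 to 126: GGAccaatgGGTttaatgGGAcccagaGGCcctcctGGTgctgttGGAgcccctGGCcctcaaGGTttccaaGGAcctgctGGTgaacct
Col3a1, codons 164 to 193: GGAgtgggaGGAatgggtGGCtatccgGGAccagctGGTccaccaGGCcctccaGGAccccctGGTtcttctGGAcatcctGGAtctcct
Col4a1, codons 148 to 177: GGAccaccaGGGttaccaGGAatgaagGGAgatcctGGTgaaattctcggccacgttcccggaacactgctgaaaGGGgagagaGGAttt
Col4a2, codons 960 to 989: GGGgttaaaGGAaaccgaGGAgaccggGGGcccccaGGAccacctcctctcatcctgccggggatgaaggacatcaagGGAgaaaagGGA
Col6a1, codons 502 to 531: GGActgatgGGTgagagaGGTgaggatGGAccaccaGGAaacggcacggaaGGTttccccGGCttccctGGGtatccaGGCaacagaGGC
In the first 3 sequences the capitals recur at every triplet from end to end. In Col4a1 and Col4a2 they stop for a stretch and then resume.

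Translated from the annotated reference, the longest unbroken run measured 338 triplets in Col1a1, 339 in Col1a2 and 344 in Col3a1. Across the 11 fibril-forming genes it lay between 216 and 344, with Col24a1 (216) and Col27a1 (217) below the other members. The 6 type IV genes had their triplets broken into 22 to 27 runs of at least 5 triplets, the longest of 39 to 66, although 74.9% to 78.8% of their residues lay in such triplets. Type VI genes had a longest run of 37 to 87 triplets within much longer chains, so that 10.1% to 31.9% of their residues were in triplets. All 44 genes held a run of at least 20 triplets, against 20 of 21857 other coding genes (0.092%). The exon structure differed as well: 41.2% to 55.0% of the coding exons of fibril-forming genes were exactly 54 bases long, which is a whole number of triplets, against 2.13% to 5.66% in type IV genes. The type IX genes and Col22a1, whose longest run was 113 triplets, came near the fibril-forming genes in this respect, at 36.8% to 44.4%. These are properties of the reference annotation, not of the 2 libraries.

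**Figure D1:**
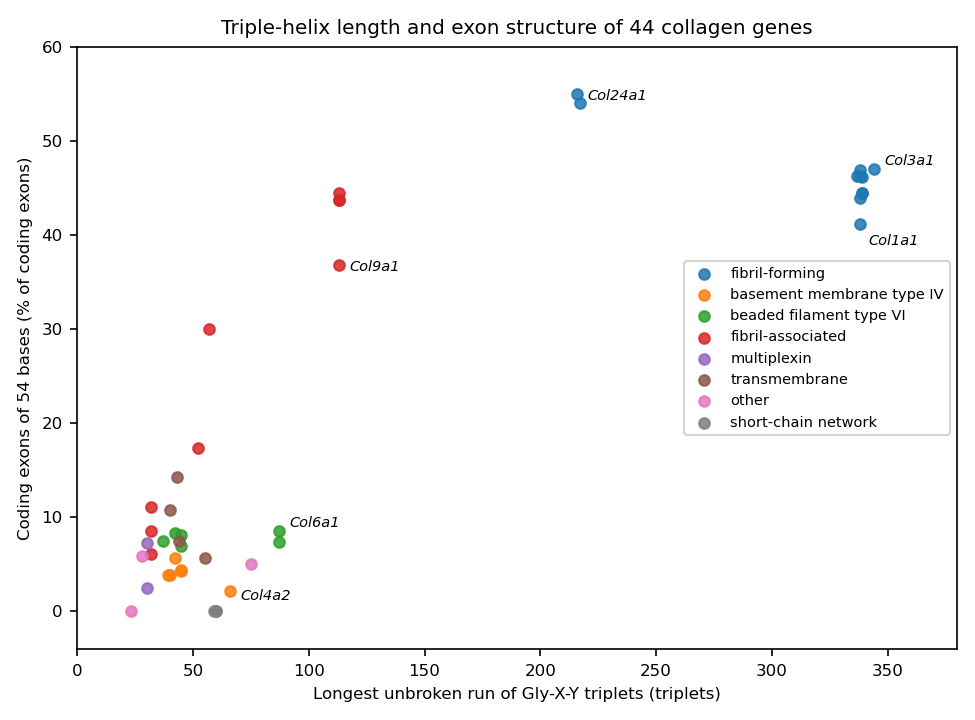
Longest unbroken run of Gly-X-Y triplets (horizontal axis, triplets) against the share of coding exons that are exactly 54 bases long (vertical axis, %), 1 point per collagen gene, coloured by class. The fibril-forming genes stand at 216 triplets or more and above 41% of exons, and the type IV genes stand at 66 triplets or fewer and below 6%.

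Of the 44 genes, 9 also encode the best-known cell-binding site of collagen, the residues glycine, phenylalanine, proline, glycine, glutamate and arginine, in which the proline becomes hydroxyproline and which integrins alpha 1 beta 1 and alpha 2 beta 1 recognise. No other coding gene of the 21857 read encodes those residues within its annotated sequence. The site is printed, in capitals with its flanks, for the most abundant fibril-forming and the most abundant type IV gene that hold it, and for the pair Col4a3 and Col4a4, whose levels differed most between the animals within type IV.
Col1a1, codons 666 to 677: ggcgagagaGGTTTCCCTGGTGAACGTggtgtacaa
Col4a1, codons 382 to 393: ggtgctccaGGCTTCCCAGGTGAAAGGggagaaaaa
Col4a3, codons 751 to 762: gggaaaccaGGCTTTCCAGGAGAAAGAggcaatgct
Col4a4, codons 904 to 915: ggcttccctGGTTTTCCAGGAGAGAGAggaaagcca
The remaining members with the site were Col2a1, Col4a6, Col7a1, Col11a1 and Col11a2. Col1a2 and Col3a1 do not hold these letters of the site, from which nothing follows about their binding.

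Of the 44 collagen genes, 33 reached 1 TPM (a transcript's share of all transcripts, corrected for length) in both animals and are called detected. Over all genes with a protein-coding transcript the share detected was 59.6%. A further 4 members reached 1 TPM in 1 animal, 7 stayed below it in both, and no member was at 0. The members together summed to 1910 and 2063 TPM (1986 ± 108), and took 0.960% and 1.04% of the counts on annotated genes, which numbered 31551632 and 32628038. A few genes carried most of this: Col3a1, Col1a1 and Col1a2 made up 48.8% of the members' TPM in replicate 1 and 52.4% in replicate 2, and the 8 highest members made up 81.1% and 82.2%. In both animals 6 members were at 100 TPM or more and 17 at 10 TPM or more.

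**Figure D2:**
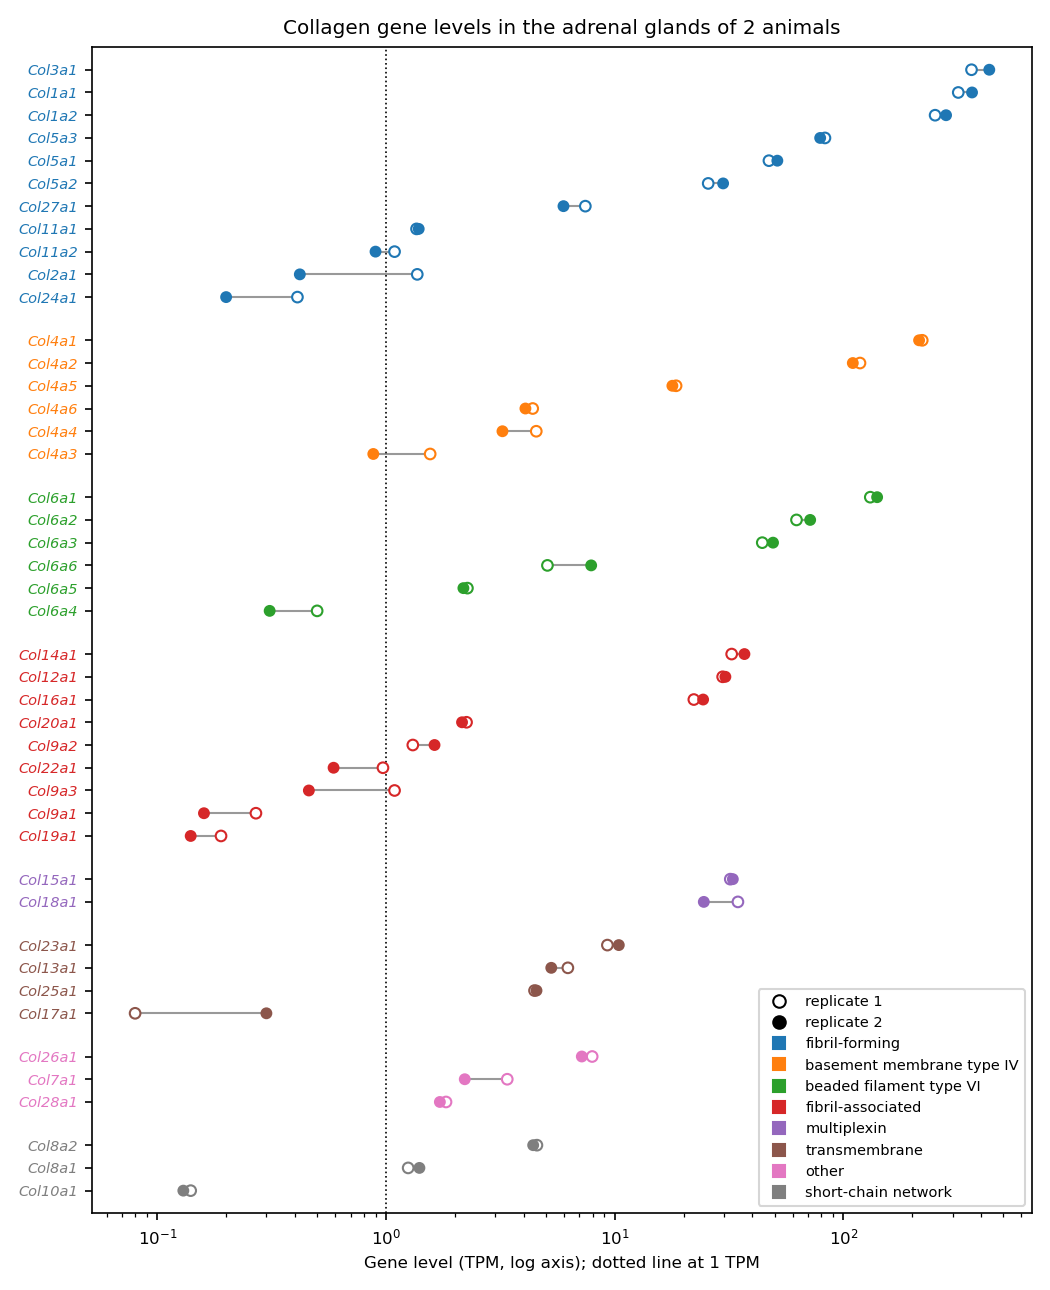
Level of each of the 44 collagen genes in TPM (log axis) in replicate 1 (open circles) and replicate 2 (filled circles), grouped and coloured by class and joined by a line; the dotted line marks 1 TPM. By mean level the genes run from Col3a1 at 363 and 434 TPM down to Col10a1 at 0.14 and 0.13 TPM, and the 2 circles lie close together for most genes above the dotted line.

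The fibril-forming class was the most abundant, with 1100 and 1249 TPM (1175 ± 106), or 57.6% and 60.6% of the members' sum. Col3a1, the chain of the type III homotrimer of soft, extensible tissue, stood highest of all members, at 363 and 434 TPM (399 ± 50.3), and 84th among the 21888 coding genes of the nuclear genome ranked by mean TPM. It lies on chromosome 1 (GRCm38, 45311538 to 45349706, plus strand). Col1a1 (chromosome 11, 94936224 to 94953042, plus strand), which encodes the alpha 1 chain of type I, the chief collagen of capsule, skin and bone, was at 318 and 365 TPM (341 ± 33.4) and ranked 106th. Its partner chain Col1a2 (chromosome 6, 4504814 to 4541544, plus strand) was at 252 and 281 TPM (266 ± 20.7) and ranked 151st. All 3 were higher in replicate 2. The counts of Col3a1 were not whole numbers to the 2 decimals deposited, so a part of its reads was shared out between genes. In bulk tissue, more cells of a type and more RNA per cell cannot be told apart.

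Type V collagen, which co-assembles with type I and limits fibril diameter, followed with 3 chains. Col5a3, the chain with the most restricted tissue distribution, was the highest of them, at 83.0 and 79.1 TPM (81.1 ± 2.76). Col5a1 was at 47.2 and 51.4 TPM (49.3 ± 2.95) and Col5a2 at 25.6 and 29.8 TPM (27.7 ± 2.93), so the order of the 3 chains was the same in both animals and their values did not overlap. Col27a1, a fibrillar collagen known from cartilage, was far lower, at 7.44 and 5.97 TPM.

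The type XI chains, which nucleate fibrils in cartilage, were at the edge of detection. Col11a1 was at 1.36 and 1.39 TPM, and Col11a2 was at 1.09 and 0.90 TPM. Col2a1, the cartilage fibril chain, was at 1.37 TPM on 179 counts in replicate 1 and 0.42 TPM on 66 counts in replicate 2. Col24a1 was at 0.41 and 0.20 TPM. Cartilage was represented by few reads in either library: Matn1 had 0 counts in replicate 1 and 1 in replicate 2, and the 6 cartilage markers looked at (Acan, Matn1, Matn3, Comp, Sox9 and Hapln1) summed to 4.36 and 3.10 TPM, of which Sox9 and Hapln1, both also made outside cartilage, held most. The 4 bone markers summed to 1.17 and 0.95 TPM.

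Type IV collagen summed to 368 and 350 TPM (359 ± 12.8), or 19.3% and 17.0% of the members' sum. Its 6 genes are known to make 3 kinds of molecule: Col4a1 with Col4a2 in nearly all basement membranes, Col4a3 with Col4a4 and Col4a5 in a few, above all the glomerulus of the kidney, and Col4a5 with Col4a6 in others. Col4a1 (chromosome 8, 11198423 to 11312826, minus strand) was at 221 and 214 TPM (218 ± 4.91), and Col4a2, which starts beside it on the plus strand, was at 118 and 110 TPM (114 ± 5.83). Col4a5 was at 18.6 and 17.9 TPM and Col4a6 at 4.38 and 4.07 TPM. The lowest were Col4a4, at 4.54 and 3.23 TPM, and Col4a3, at 1.56 and 0.88 TPM. The ubiquitous pair thus made up nearly all of the class, and as a ratio between the animals its first 4 genes differed by less than Col4a3 and Col4a4 did.

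The 6 type IV genes stand in 3 head-to-head pairs, each transcribed outward from a shared start region. The annotated ends of Col4a1 and Col4a2, both on chromosome 8, overlap by 22 bases, those of Col4a4 and Col4a3 on chromosome 1 stand 71 bases apart, and those of Col4a6 and Col4a5 on chromosome X stand 1308 bases apart. In each pair the 2 genes were at different levels. The whole interval between Col4a4 and Col4a3 is short enough to print, and it is shown because these 2 genes were the type IV genes that differed most between the animals (GRCm38.p6, chr1:82586850-82586920, minus strand, which reads toward Col4a4).
Col4a4 to Col4a3 interval: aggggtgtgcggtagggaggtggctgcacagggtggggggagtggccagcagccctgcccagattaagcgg

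Type VI collagen summed to 245 and 272 TPM (258 ± 18.5). Its classical chains form a trimer of 1 each, and they were present in falling order. Col6a1 (chromosome 10, 76708792 to 76726168, minus strand) was at 131 and 140 TPM (136 ± 6.60), Col6a2 at 62.3 and 71.5 TPM (66.9 ± 6.51) and Col6a3, by far the longest of the 3 chains, at 44.2 and 49.2 TPM (46.7 ± 3.57). The 3 related chains that can take the place of Col6a3 were much lower: Col6a6 was at 5.08 and 7.89 TPM, Col6a5 at 2.27 and 2.18 TPM and Col6a4 at 0.50 and 0.31 TPM. Col6a4, Col6a5 and Col6a6 are neighbours on chromosome 9 and similar in sequence. The counts of Col6a5 and Col6a6, like those of Col3a1, were not whole numbers, and these 2 values are less certain than those of the classical chains.

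The fibril-associated collagens summed to 90.4 and 96.9 TPM (93.6 ± 4.60). Col14a1, which binds the surface of type I fibrils through decorin, was at 32.5 and 36.9 TPM, Col12a1, found on fibrils under tension, at 29.6 and 30.5 TPM, and Col16a1 at 22.2 and 24.4 TPM. These 3 made up most of the class. Col20a1 was at 2.25 and 2.15 TPM and Col9a2 at 1.31 and 1.63 TPM. The others were low: Col9a3 was at 1.09 and 0.46 TPM, Col22a1, a collagen of tissue junctions such as that of muscle and tendon, at 0.97 and 0.59 TPM, Col9a1 at 0.27 and 0.16 TPM and Col19a1 at 0.19 and 0.14 TPM. The type IX molecule of cartilage needs all of Col9a1, Col9a2 and Col9a3, and only Col9a2 reached 1 TPM in both animals.

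Both multiplexins, whose C-terminal fragments restin and endostatin act on blood vessels, were well detected. Col15a1 was at 32.0 and 32.8 TPM (32.4 ± 0.587) and Col18a1 at 34.6 and 24.5 TPM (29.5 ± 7.11). The spread of Col18a1 was much wider than that of Col15a1, and by these values their order reversed between the animals. In the second deposited quantification, described below, Col18a1 was higher in both animals, at 82.4 and 54.2 TPM against 47.7 and 47.8 TPM for Col15a1.

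Of the transmembrane collagens, Col23a1 was at 9.29 and 10.4 TPM, Col13a1, a collagen of adhesion sites and the neuromuscular junction, at 6.24 and 5.28 TPM, and Col25a1, needed for motor nerve ingrowth into muscle, at 4.46 and 4.55 TPM. Col17a1, the hemidesmosome collagen of skin epithelium, was at 0.08 TPM on 13 counts and 0.30 TPM on 18 counts, and of the epidermal keratins Krt5 had no count in either library and Krt14 had 12 and 46 counts (0.35 and 0.90 TPM). Col26a1 was at 7.97 and 7.18 TPM and Col28a1, known from peripheral nerve, at 1.83 and 1.72 TPM. Col7a1, the anchoring fibril of the skin, was at 3.39 and 2.21 TPM. Of this, transcripts under 1000 bases held 2.38 and 1.44 TPM on 23.92 and 19.45 counts, and the 9250-base Col7a1-202 held 1.01 and 0.76 TPM. Among the short-chain collagens Col8a2 was at 4.57 and 4.40 TPM and Col8a1 at 1.25 and 1.40 TPM, both known from the matrix of vessels and the cornea. Col10a1, the marker of hypertrophic cartilage, was at 0.14 and 0.13 TPM on 13 counts each.

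Around the detection limit of 1 TPM, the members just inside it were Col8a1 (1.25 and 1.40), Col9a2 (1.31 and 1.63) and Col11a1 (1.36 and 1.39), and those just outside it were Col4a3 (1.56 and 0.88), Col11a2 (1.09 and 0.90) and Col2a1 (1.37 and 0.42). In the first 3 neither animal fell below the limit, and in the other 3 replicate 2 did.

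Chains that assemble into 1 molecule were compared within each animal as log2 ratios of TPM with 0.01 TPM added. Col1a1 exceeded Col1a2 by 0.34 in replicate 1 and 0.38 in replicate 2 (0.36 ± 0.03), which is 1.26-fold and 1.30-fold, for a protein that holds more alpha 1 than alpha 2 chains. Col4a1 exceeded Col4a2 by 0.90 and 0.96 (0.93 ± 0.04). Col5a1 exceeded Col5a2 by 0.88 and 0.79 (0.83 ± 0.07). Col6a1 stood above Col6a2 by 1.07 and 0.97 (1.02 ± 0.07), and Col6a3 stood below Col6a2, at a log2 ratio of -0.50 and -0.54 (-0.52 ± 0.03). All 5 of these ratios were far from 0 in relation to their spread between the 2 libraries. That spread leaves out the differences between quantifications, which are given below.

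Of the scarcer pairs, Col4a5 exceeded Col4a6 by 2.08 and 2.13 (2.11 ± 0.04), and Col4a3 stood below Col4a4 at -1.54 and -1.86 (-1.70 ± 0.23). The ratio of Col8a1 to Col8a2 was -1.86 and -1.65 (-1.75 ± 0.15). That of Col11a1 to Col11a2 was 0.32 and 0.62 (0.47 ± 0.22) and that of Col9a2 to Col9a3 was 0.26 and 1.80 (1.03 ± 1.09), so the last of these did not differ from 0 beyond its spread. The size of several ratios depended on the quantification: in the second deposited quantification, made from the reads rather than from the alignments and summed here to genes, Col1a1 to Col1a2 was 0.05 and Col4a1 to Col4a2 was 1.58.

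In Col3a1, Col4a1 and Col1a2, short annotated transcripts held a part of the level on which the quantifications differed. For Col1a2, the 850-base transcript Col1a2-205 was at 1.44 and 0.76 TPM in the first quantification and 84.2 and 103 TPM in the second. The full-length Col1a2-201 was at 237 and 269 TPM in the first and 401 and 450 TPM in the second. The second quantification also gave higher TPM to genes at large, by a median of 1.81 times. TPM divides by length, so a few reads given to a short transcript weigh as much as many on the full-length one. For Col3a1, the transcript Col3a1-201 of 5564 bases, which codes for the whole chain, held 46955 counts and 279 TPM in replicate 1 and 59680 counts and 343 TPM in replicate 2. Transcripts under 1000 bases held 1219 and 1528 of the gene's counts and 80.3 and 88.4 TPM of its level. Col3a1-207, a retained-intron transcript of 431 bases, alone had 37.0 TPM on 378 counts in replicate 1 and 25.8 TPM on 273 counts in replicate 2, and Col3a1-205 (737 bases) had 41.4 and 59.6 TPM.

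The place of Col3a1 at the top of the list rested on these short transcripts. By gene TPM it exceeded Col1a1, with a log2 ratio of 0.19 in replicate 1 and 0.25 in replicate 2, and in the second quantification it did so by 0.44 and 0.58. When only the leading transcript of each gene was compared, a measure chosen after seeing the data, Col1a1 stood higher, at 312 and 359 TPM against 279 and 343 TPM for Col3a1 (log2 ratio -0.16 and -0.07). Col4a1 had a similar makeup. Col4a1-201 (6615 bases) held 177 and 169 TPM and Col4a1-203 (545 bases) 41.4 and 42.2 TPM on 569 and 599 counts, and the second quantification gave 121 and 126 TPM to Col4a1-204, a non-coding transcript of 416 bases that had no count in the first.

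Over the 22 members at 5 TPM or more in both animals, the leading transcript carried a median of 83.3% of the gene's TPM, at least 90% in 10 of them and at least 50% in 20. The leading transcript was the same in the second quantification for 22 of 22. Col6a1-201 carried 99.2% and 99.7% of its gene, while Col6a3-202 carried 51.6% and 53.7%, next to the 646-base retained-intron transcript Col6a3-206 at 10.1 and 10.9 TPM. Col16a1 had no dominant transcript: its leading one, Col16a1-207, is a non-coding processed transcript of 833 bases with 6.05 and 6.48 TPM, or 27.3% and 26.6% of the gene. Col18a1 was split over 3 long coding transcripts, of which Col18a1-202 was at 23.2 and 17.7 TPM and Col18a1-203 at 8.47 and 4.20 TPM.

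**Figure D3:**
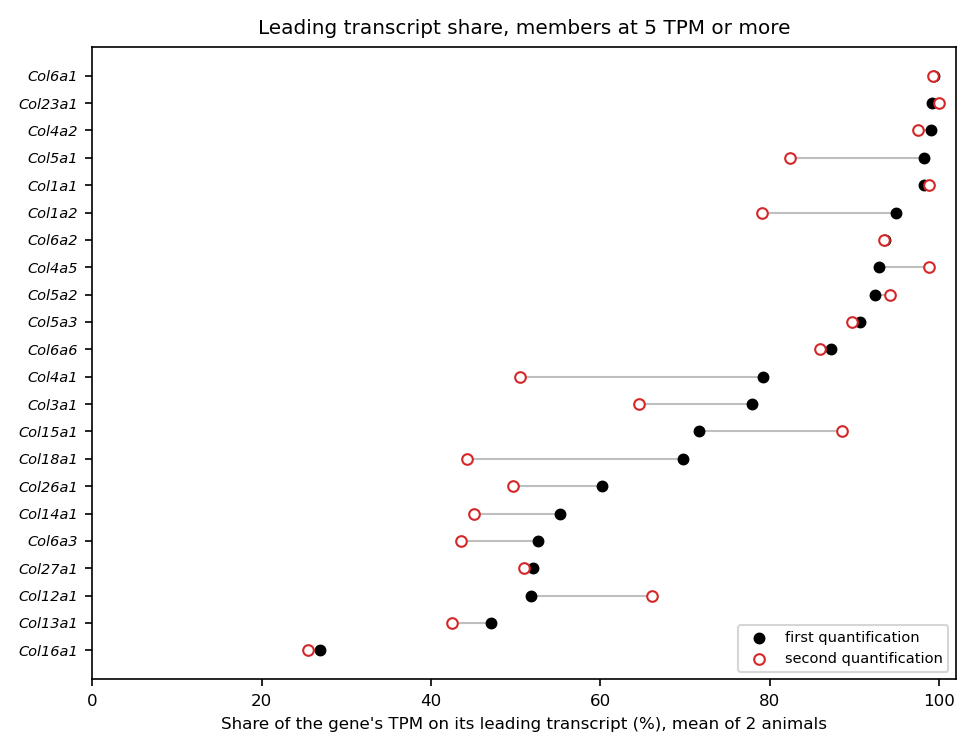
Share of each gene's TPM on its leading transcript (%, mean of the 2 animals) for the 22 collagen genes at 5 TPM or more, in the first (black) and second (red, open) deposited quantification. Shares run from 26.9% for Col16a1 to 99.4% for Col6a1 in the first quantification, and the second gives a lower share to Col4a1, Col3a1, Col18a1, Col1a2 and Col5a1 in particular.

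The animals were compared by a log2 ratio, replicate 2 to replicate 1, of expected counts with 0.5 added after TMM scaling (a factor per library that aligns the bulk of genes), over the 37 members with a mean of at least 100 counts. The members without that depth were Col9a3, Col6a4, Col24a1, Col9a1, Col17a1, Col19a1 and Col10a1. Of the 37, 22 were higher in replicate 2, where 55.3% of all 13734 genes of that depth were, so the count was near the background. The median log2 ratio was 0.12 against 0.02 over all genes, but it turned to -0.046 against -0.03 by deposited TPM and was 0.0037 in the second quantification. By TMM the median size regardless of direction was 0.19 against 0.11. One member, Col2a1, was at least 2-fold higher in replicate 1 and none was at least 2-fold higher in replicate 2, where the background shares were 1.71% and 1.5%. In 15 members the 95% exact (Clopper-Pearson) counting interval lay above 0, in 8 below 0, and in 14 it held 0. That interval covers counting error only, not the spread between animals.

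**Figure D4:**
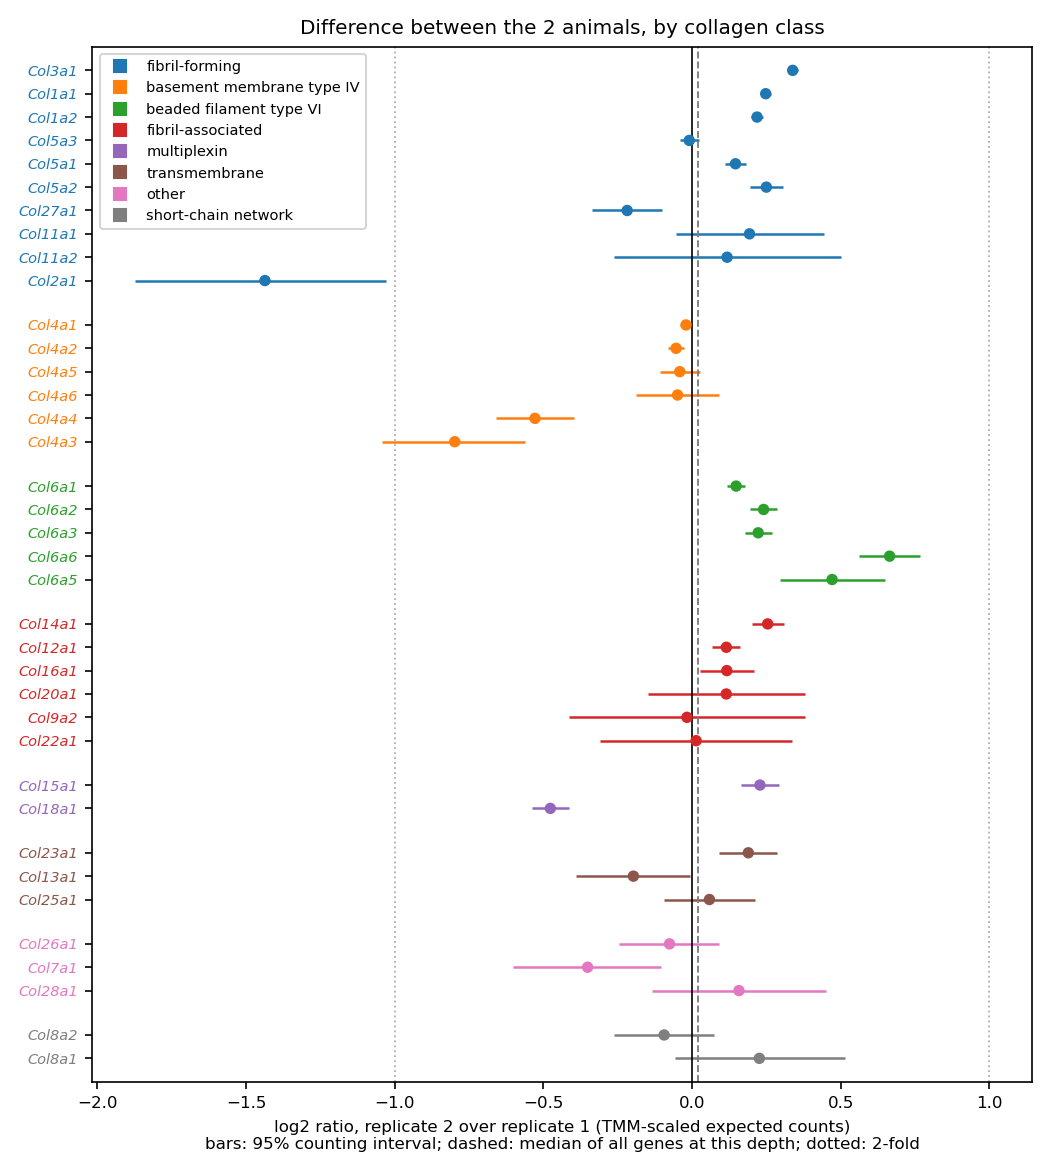
Log2 ratio of replicate 2 over replicate 1 (horizontal axis) for the 37 collagen genes with a mean of at least 100 counts, by class, with 95% counting intervals as bars; the dashed line is the median of all genes of that depth and the dotted lines mark 2-fold. All 6 type IV genes lie left of 0 and all 5 type VI genes right of it, and Col2a1 alone lies beyond a dotted line.

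The classes did not move as one. Each class count by TMM, here and below, stands beside 55.3% of all 13734 genes with a mean of at least 100 counts. The count of the fibril-forming class was near that share. In the fibril-forming class 7 of 10 genes were higher in replicate 2 (6 of 10 in the second quantification and by deposited TPM, where Col11a2 turned), led by Col3a1 at 0.34 (0.32 to 0.36), Col5a2 at 0.25 (0.20 to 0.31) and Col1a1 at 0.25 (0.23 to 0.26), with Col1a2 at 0.22 (0.20 to 0.24). Against them stood Col27a1 at -0.22 (-0.34 to -0.10) and Col2a1 at -1.44 (-1.87 to -1.03). The Col2a1 difference was -0.53 in the second quantification, on the same side of 0 but no longer 2-fold. Col5a3, at -0.01 (-0.04 to 0.02), parted from Col5a1 at 0.15 (0.11 to 0.18).

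All 5 type VI genes with enough counts were higher in replicate 2. Col6a6 differed most, at 0.66 (0.56 to 0.77), ahead of Col6a2 at 0.24, Col6a3 at 0.22 and Col6a1 at 0.15. Col6a5 was at 0.47 by counts but at -0.06 by TPM, so its direction depended on the scale. Among the fibril-associated collagens 5 of 6 were higher in replicate 2, with Col14a1 at 0.25 (0.20 to 0.31), Col12a1 at 0.12 (0.07 to 0.16) and Col16a1 at 0.12 (0.03 to 0.21), but the count was 4 of 6 by deposited TPM and by the spike-in total. In the second quantification it was 3 of 6, with Col12a1 at -0.08, Col20a1 at -0.38 and Col22a1 at -0.72. Skeletal muscle markers were also higher in replicate 2: the 5 of them (Ckm, Acta1, Myh3, Myh8 and Mylpf) summed to 295 and 1854 TPM, each at least 2-fold higher. The 4 liver markers summed to 91.3 and 366 TPM, the 4 macrophage markers to 67.7 and 96.4 TPM, and the 4 adipose markers to 620 and 692 TPM, 3 of them higher in replicate 2. Of the 7 markers of fibroblasts and capsule, 3 were higher in replicate 2 and 4 in replicate 1, and their sum was 229 and 248 TPM. The sum was higher in replicate 2 through Dcn, at 90.7 and 117 TPM. Dcn and Lum also stand among the genes for fibril-binding proteins below. The part of the tissues named here in the fibrillar and type VI differences was not tested.

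No type IV gene was higher in replicate 2, by TMM or by any of the other 4 scalings. The major chains differed little, Col4a1 at -0.02 (-0.04 to 0.001), Col4a2 at -0.05 (-0.08 to -0.03), Col4a5 at -0.04 (-0.11 to 0.03) and Col4a6 at -0.05 (-0.19 to 0.09). The glomerular pair differed more, Col4a3 at -0.80 (-1.04 to -0.56) on 394 and 227 counts and Col4a4 at -0.53 (-0.66 to -0.40) on 1158 and 805 counts. Col18a1 was lower in replicate 2 too, at -0.48 (-0.54 to -0.42), as was Col7a1 at -0.35 (-0.60 to -0.10), while Col15a1 was at 0.23 (0.17 to 0.29) by counts but at 0.0037 in the second quantification and 0.04 by deposited TPM. Kidney markers moved in the same direction: the podocyte gene Nphs1 was at 2.53 and 0.30 TPM, and the 5 markers of the kidney tubule summed to 86.4 and 8.83 TPM. Of the podocyte markers that other cells share, Podxl was at 29.6 and 21.3 TPM and Synpo at 15.2 and 12.6 TPM. Their part in the Col4a3, Col4a4 and Col18a1 differences was not tested. Endothelial markers, whose cells lie on type IV collagen, summed to 173 TPM in both animals.

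The libraries as a whole showed the gland itself in both animals. The 5 markers of the adrenal cortex summed to 4576 and 5087 TPM, and the 4 of chromaffin cells to 1301 and 1514 TPM. They also differed in tissue that is not adrenal: besides muscle, liver and kidney, the 5 genes of the exocrine pancreas summed to 3225 and 0.51 TPM.

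Collagen needs partners that modify, fold, export, trim and cross-link it, and further proteins bind it or act in its breakdown. Of 70 genes for all these proteins, 57 were at 1 TPM or more in both animals. Over all genes with a protein-coding transcript the share was 59.6%. Prolyl hydroxylation makes the hydroxyproline that keeps the helix stable at body temperature. Its genes and those of lysyl hydroxylation stood in a list of 15 genes, of which 14 were detected. That list also held Colgalt1 and Colgalt2, which belong to neither reaction, and Colgalt2, at 1.00 and 0.93 TPM, was the gene not detected. The highest were P4hb, the shared subunit of prolyl 4-hydroxylase, at 190 and 178 TPM, Ppib, the cyclophilin of the prolyl 3-hydroxylation complex, at 157 and 147 TPM, and Plod2, the lysyl hydroxylase of the telopeptides, at 53.2 and 56.0 TPM. P3h2, the prolyl 3-hydroxylase known to act on type IV collagen, was at 8.21 TPM on 753 counts in replicate 1 and 3.88 TPM on 355 counts in replicate 2, a log2 ratio of -1.09 (-1.27 to -0.90). By TMM it was the sole gene of the 59 at this depth with a difference of at least 2-fold. That share is near the background of 1.71%. In the second quantification P3h2 was at 14.1 and 7.85 TPM, less than 2-fold apart. The kidney markers, whose part in the P3h2 difference was not tested, were also lower in replicate 2.

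All 9 genes of folding and export were detected. Serpinh1, the collagen-specific chaperone HSP47, was at 154 and 159 TPM, Mia3, which loads bulky procollagen into transport carriers, at 64.1 and 62.1 TPM, and Sec24d, a coat protein of those carriers, at 34.9 and 26.5 TPM. Of the 9 genes of propeptide trimming 6 were detected, with Pcolce, the enhancer of C-propeptide removal, at 196 and 218 TPM, the protease Furin at 49.9 and 46.2 TPM and Bmp1, the C-proteinase itself, at 38.7 and 36.4 TPM. Of the 5 lysyl oxidases that cross-link the chains 4 were detected, with Loxl2 at 28.7 and 31.5 TPM, Loxl1 at 21.5 and 23.1 TPM and Lox at 9.98 and 9.81 TPM. Summed levels differed little between the animals: 595 and 572 TPM for the hydroxylation list, 348 and 340 TPM for folding and export, and 64.4 and 68.3 TPM for cross-linking.

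Of 12 genes for proteins that bind collagen fibrils 11 were detected, and by TMM all 11 that had enough counts were higher in replicate 2. Their median log2 ratio was 0.31, beside 0.02 over all genes and a background share of 55.3%. By deposited TPM, Thbs2 was lower in replicate 2, at 9.11 and 9.03 TPM. Sparc, a collagen-binding matricellular protein, was the highest, at 821 and 908 TPM, followed by Postn at 134 and 169 TPM, which helps cross-linking enzymes reach the fibril, and Dcn, the fibril-spacing proteoglycan decorin, at 90.7 and 117 TPM. They moved in the direction of the type I, III and VI chains. The muscle, liver, macrophage, adipose, adrenal cortex and chromaffin markers mostly did so too, and those of fibroblasts and capsule were split. The part of any of these tissues in the difference was not tested.

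Of 10 collagen receptors 6 were detected: Itgb1, the shared integrin beta 1 chain, was at 121 and 117 TPM, the discoidin receptor Ddr1 at 23.5 and 22.3 TPM, and Mrc2, which takes up collagen fragments, at 17.7 and 17.1 TPM. Of the alpha chains that pair with Itgb1 on collagen, Itga1 was at 11.8 and 10.5 TPM and Itga2 at 1.60 and 2.01 TPM, and Itga10 and Itga11 stayed below 1 TPM. Of 10 genes of collagen breakdown 7 were detected, with the inhibitor Timp3 at 112 and 109 TPM, the membrane protease Mmp14 at 76.8 and 78.4 TPM, and the inhibitor Timp2 at 38.1 and 42.9 TPM beside the gelatinase Mmp2 at 38.2 and 40.4 TPM. The interstitial collagenases Mmp8 and Mmp13 were at 0.39 TPM or less. By TMM all 6 breakdown genes with enough counts were higher in replicate 2, beside 55.3% of all genes of that depth. Their median log2 ratio was 0.12, beside 0.02 over all genes. By deposited TPM, Timp3 and Timp1 (15.94 and 15.92 TPM) were lower in replicate 2.

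On the annotation, 18 members overlap a gene on the other strand and 15 overlap one on the same strand, where reads could be counted for either. The libraries were stranded, per the labels, and the strand setting of the counting was not given in the sources used here.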

How the data were processed

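Total RNA-seq libraries of 2 adrenal glands (300 ng of RNA, depleted of ribosomal RNA, ERCC spike-ins, per the labels) were analysed as 1 group. Per the file headers and the deposited notes, the authors' gene and transcript tables hold expected counts, TPM and FPKM from alignments to the transcriptome (mm10, annotation M21). A second deposited table, made from the reads, holds estimated counts and TPM per transcript and was summed to genes. The aligner and the quantifier were not given in the sources used here. Unrounded expected counts were scaled by TMM (edgeR 4.0.16). Size factors of DESeq2 1.42.0, the spike-in total and deposited TPM were alternatives. Rows that name no annotated gene (0.901% and 0.923% of counts) were left out. The ratio script was tested on simulated data.

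Named were all members, the 3 highest genes of each pathway list and those differing 2-fold; Mmp2, Itga1, Itga2, Itga10, Itga11, Mmp8 and Mmp13 were added after their values were seen. Members, classes and gene lists were chosen with earlier results of these data known. Coding sequences come from GENCODE M21, where the longest coding sequence of each gene was translated, and the interval between Col4a4 and Col4a3 from RefSeq (GRCm38.p6). A promoter window was at hand for 35 of 44 members. Depth was 31551632 and 32628038 counts. Reads carried no molecular identifiers and may share a molecule, so intervals cover counting error only. A marker of the lists is not reported here.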

Additional observations from a re-analysis of the deposited data

How the results depend on the processing

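No paired analysis was possible because there was 1 group. The number of detected members was 33 in the main setting. It was 29 with detection at 2 TPM, 36 at 0.5 TPM, and 37 both in the second quantification and with replicate 1 alone. The second quantification gave higher TPM throughout (median 1.77 times for the members, 1.81 times for all genes), so the members summed to 3792 TPM, and the classes to 2196 (fibril-forming), 810 (type IV), 452 (type VI), 151 (fibril-associated), 116 (multiplexin), 36.2 (transmembrane), 20.6 (types VII, XXVI and XXVIII) and 9.96 TPM (short-chain). With the leading transcript alone, an alternative added after seeing the data, the sum was 1709 TPM and the same classes came to 1052, 311, 230, 44.8, 43.7, 14.8, 6.89 and 5.79 TPM. In the order second quantification then leading transcript, the log2 chain ratios were 0.050 and 0.41 for Col1a1 to Col1a2, 1.58 and 0.61 for Col4a1 to Col4a2, -1.31 and -1.41 for Col4a3 to Col4a4, 2.00 and 2.07 for Col4a5 to Col4a6, 1.02 and 0.92 for Col5a1 to Col5a2, and 0.93 and 1.33 for Col11a1 to Col11a2. The leading transcript gave 1.11 for Col6a1 to Col6a2 and -1.35 for Col6a3 to Col6a2. A pseudocount of 1 TPM gave -1.14 for Col4a3 to Col4a4, 1.88 for Col4a5 to Col4a6, -1.24 for Col8a1 to Col8a2 and 0.25 for Col11a1 to Col11a2. The median share on the leading transcript was 80.8% in the second quantification. The median log2 ratio of the members turned to -0.046 by deposited TPM and was 0.0037 in the second quantification, beside -0.03 and -0.05 over all genes; the cause was not tested. With a count minimum of 20 or none, 2 members differed 2-fold, the added one being Col6a4 (76 and 30 counts). The sign of the difference changed for 0 members with DESeq2 size factors, 2 with the spike-in total, 7 in the second quantification and 6 by deposited TPM. Depth limits the members below 100 counts: the counting intervals of the difference for Col9a1, Col10a1, Col17a1, Col19a1 and Col24a1 held 0, and those for Col9a3 (-1.35 to -0.18) and Col6a4 (-2.01 to -0.72) did not.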
